A study of Homo sapiens with 4 samples.

Results

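The genes of the constitutive proteasome were taken as those whose RefSeq symbol is PSMA, PSMB, PSMC or PSMD followed by a number, with the immunoproteasome genes PSMB8, PSMB9 and PSMB10 left out. Of 36 such symbols in the RefSeq table, 35 had a probe on the arrays, among 17721 genes that did in all, and PSMB11 had none. The 35 genes are covered by 49 probes of 1 spot each. PSMA8, a testis-restricted relative of the alpha subunits, passed the call of well above background on none of the arrays, so 34 genes have values, beside 14283 genes of the whole array that pass the same call on every array. The name of the group holds for 31 of the 34 genes, whose products are subunits of the particle, whereas PSMD5, PSMD9 and PSMD10 encode chaperones that help to assemble its regulatory cap and are not part of the finished enzyme.

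RNA came from OVSAYO cells, an established line of human ovarian clear cell carcinoma (CCC). The cells were given a control siRNA (NS-si) or siRNA against Sp1 (Sp1-si) and cultured for 40 h by the labels (the study's text also gives a shorter time). They were then either left without CoCl2 or kept for 4 h with 0.5 mM CoCl2, a hypoxia-mimicking agent (NS-si → CoCl2 and Sp1-si → CoCl2). Each of these 4 conditions was hybridised to 1 single-colour Agilent array, so that nothing is replicated, no difference could be tested, and precision is limited by the number of arrays. Array and condition cannot be told apart. The study asked which genes respond to CoCl2 in a manner that depends on Sp1, a ubiquitous transcription factor that binds GC-rich promoter elements.

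The proteasome degrades proteins tagged with ubiquitin. Its 20S core is a barrel of alpha rings, which gate the entrance, and beta rings, which hold the catalytic sites. The 19S regulatory particle caps the barrel, where a ring of ATPases unfolds the substrate and a lid removes its ubiquitin. Cells that need more proteolysis raise most subunit genes together through NFE2L1, a transcription factor that binds antioxidant response elements. Interferon replaces the catalytic subunits by those of the immunoproteasome.

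Signals are given here as multiples of the 75th percentile signal of the same array, which allows 1 probe to be compared between arrays but not a probe with another. The 75th percentile lay at intensities between 977 and 1287. Ratios are differences of log2 signals, and a log2 ratio of at least 0.5 in size, a limit that stands in for a test, is called past the limit. Where a gene had several probes, the brightest was used. The only measure of error is technical. For probes of like signal that were printed 10 times, the SD of a log2 ratio between spots on the array was 0.022 to 0.037, which leaves out any difference between cultures. SP1, the target of the siRNA, stood at 0.484 (NS-si), 0.0356 (Sp1-si), 0.439 (NS-si → CoCl2) and 0.0301 (Sp1-si → CoCl2). Of markers of the line, PAX8, KRT7, EPCAM and NAPSA were well above background on all arrays, while PTPRC of leukocytes and PECAM1 of endothelium were so on none. VEGFA, a target of hypoxia signalling, had log2 ratios of CoCl2 of 2.34 under NS-si and 2.86 under Sp1-si. NAPSA, the aspartic protease napsin A, was lower by 2.33 on the log2 scale after Sp1-si.

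Most proteasome genes differed little between the 4 arrays. Of the 34 genes, 27 (79.4%) stayed within the limit in all 4 ratios, which are those of CoCl2 under NS-si, of CoCl2 under Sp1-si, of Sp1-si over NS-si without CoCl2 and of the same with CoCl2. Among all 14283 genes, 38.3% did. Proteasome probes are bright, as 33 of the 34 genes lay at or above the 75th percentile on all 4 arrays against 37.5% of all genes. Among the 5357 genes that bright, 47.4% stayed within the limit in all ratios, against 81.8% of the 33 proteasome genes. The genes past the limit were PSMB3, PSMB7, PSMC4, PSMC6, PSMD5, PSMD9 and PSMD11.

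**Figure D1:**
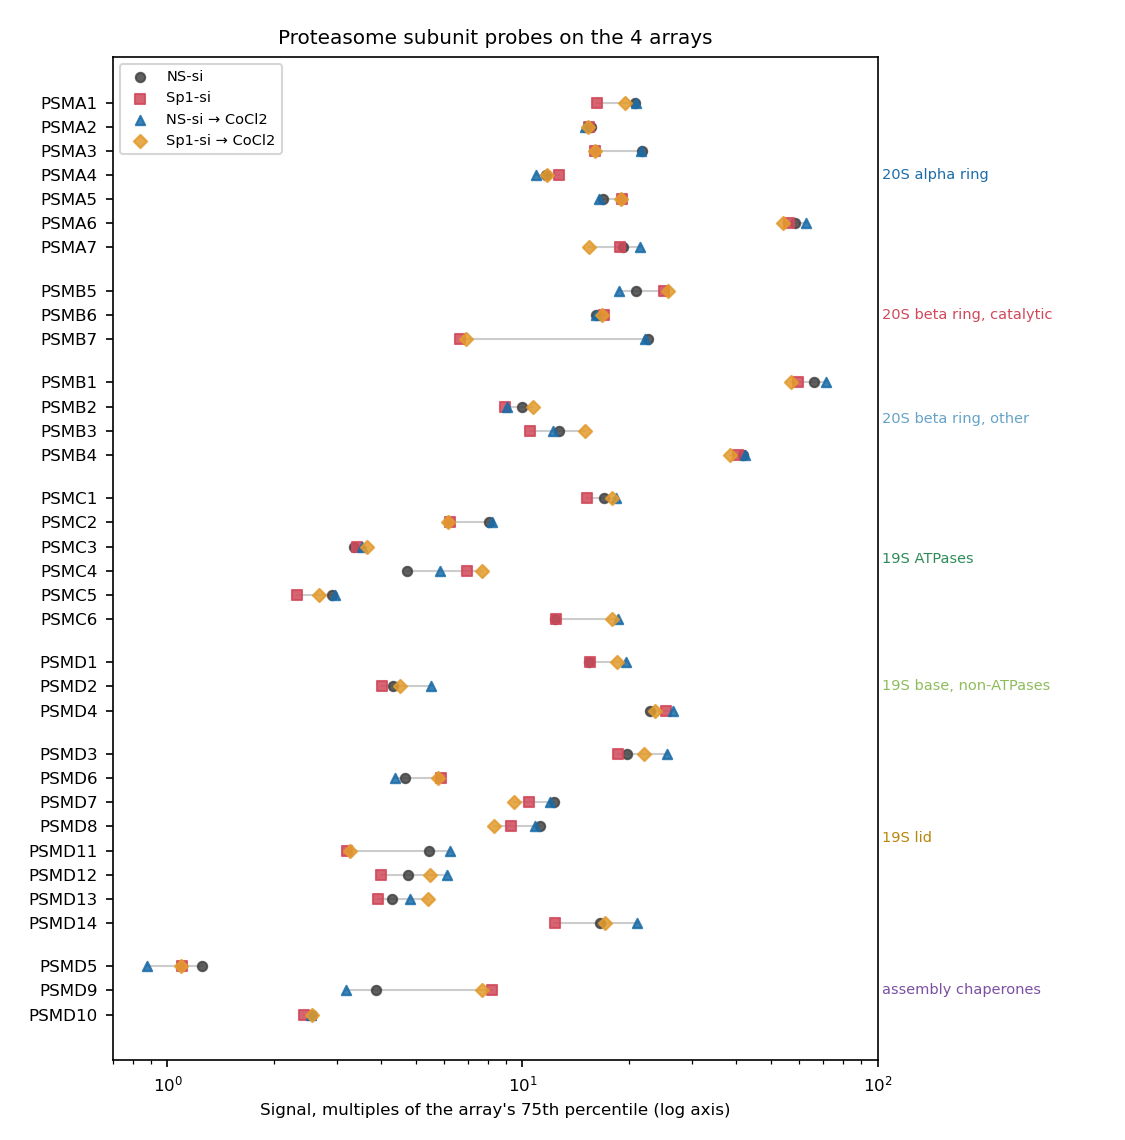
Signal of each of the 34 proteasome genes on the 4 arrays, as multiples of the 75th percentile signal of the array on a log axis, with genes ordered by role and a grey line from the lowest to the highest array. Most genes have their 4 points close together, whereas PSMB7 lies near 22 on both NS-si arrays and near 7 on both Sp1-si arrays, and PSMD9 lies higher on both Sp1-si arrays than on both NS-si arrays.

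Silencing of Sp1 went with large differences in 3 proteasome genes, and these were seen both without and with CoCl2, on separate pairs of arrays. PSMB7, the beta2 subunit that carries the trypsin-like activity of the core, stood at 22.6 under NS-si and 22.2 in NS-si → CoCl2 cells, but at 6.66 in Sp1-si and 6.91 in Sp1-si → CoCl2 cells. It was thus 3.39-fold lower under Sp1-si without CoCl2 and 3.21-fold lower with CoCl2, with log2 ratios of -1.76 and -1.68. Of all genes, 1.25% lay as low or lower without CoCl2 and 2.09% with CoCl2. PSMB7 has 1 probe (A_23_P9362).

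PSMD11, the lid subunit Rpn6 that clamps the cap onto the core, stood at 5.45 under NS-si and 6.26 in NS-si → CoCl2 cells and at 3.20 in Sp1-si and 3.26 in Sp1-si → CoCl2 cells. The log2 Sp1-si/NS-si ratios were -0.77 without and -0.94 with CoCl2, from 1 probe. Both Sp1-si arrays lay below both NS-si arrays for this gene.

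PSMD9 went the other way. This chaperone of the ATPase ring stood at 3.86 under NS-si and 3.19 in NS-si → CoCl2 cells and at 8.22 in Sp1-si and 7.69 in Sp1-si → CoCl2 cells. It was 2.13-fold higher under Sp1-si without and 2.41-fold higher with CoCl2, with log2 ratios of 1.09 and 1.27. A second and dimmer probe gave 1.36 and 1.32. The other chaperones, which hold different ATPases, differed less. PSMD5 had log2 ratios of -0.18 without and 0.32 with CoCl2, and PSMD10 of -0.08 and 0.01.

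Without CoCl2, 2 of 34 genes were past the limit upwards under Sp1-si, PSMD9 and PSMC4, where 16.1% of all genes were, and 2 downwards, PSMB7 and PSMD11, where 16.3% were. With CoCl2, 1 was past it upwards, PSMD9, against 19.6% of all genes, and 2 downwards, again PSMB7 and PSMD11, against 20.7%. These shares are below the background in each case, and also below that of genes as bright, of which 12.5% were past the limit upwards and 13.1% downwards without CoCl2 and 15.2% and 18.3% with CoCl2. Past 1 in size in both were PSMD9 upwards, against 5.85% of all genes without and 7.01% with CoCl2, and PSMB7 downwards, against 5.64% and 7.69%. PSMC4, an ATPase of the 19S base, stood at 4.72 (NS-si), 6.98 (Sp1-si), 5.87 (NS-si → CoCl2) and 7.68 (Sp1-si → CoCl2), with log2 ratios of 0.56 without and 0.39 with CoCl2. The median ratio of the 34 genes was -0.09 both without and with CoCl2, while that of all genes was -0.01 and -0.02. Below 0 were 23 of 34 genes without CoCl2 and 20 with CoCl2, beside 7268 and 7314 of all 14283 genes. Without scaling between arrays the medians of the 34 genes were -0.15 and 0.30, as every ratio with CoCl2 is then higher by 0.40, which turns the sign of the smaller negative ones.

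**Figure D2:**
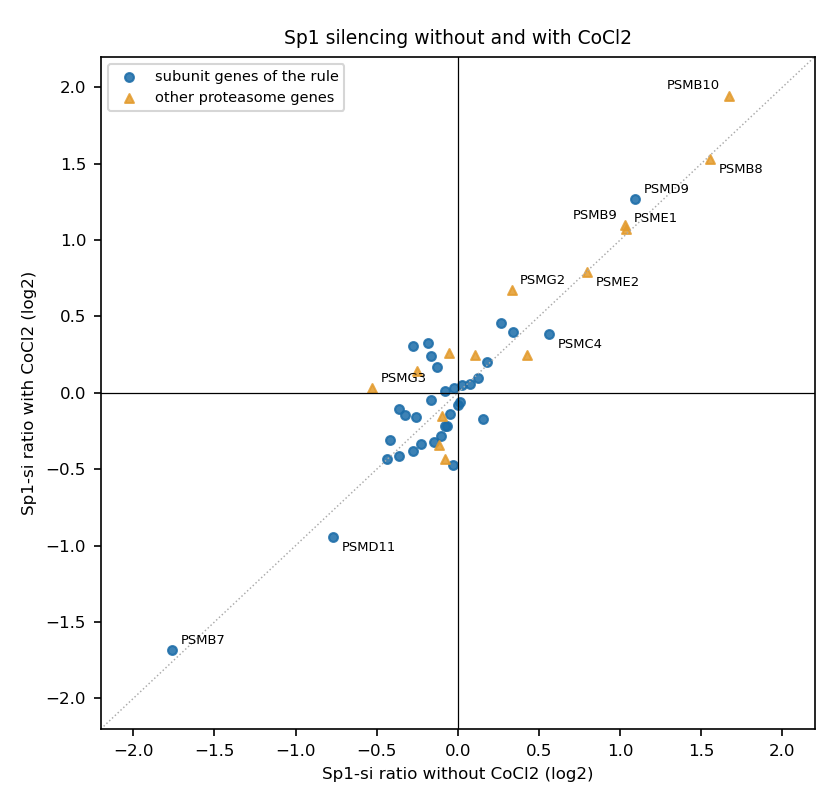
Log2 Sp1-si/NS-si ratio without CoCl2 on the x axis and with CoCl2 on the y axis for the 34 proteasome genes (circles) and 14 further proteasome genes (triangles), with names for genes past 0.5 on either axis and a dotted line where both ratios are equal. PSMB7 and PSMD11 lie at the lower left, while PSMD9 lies at the upper right near PSMB8, PSMB9, PSMB10, PSME1 and PSME2.

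The catalytic genes differed in direction. PSMB5, the beta5 subunit with the chymotrypsin-like activity, stood at 20.9 (NS-si), 25.1 (Sp1-si), 18.7 (NS-si → CoCl2) and 25.7 (Sp1-si → CoCl2), with log2 Sp1-si/NS-si ratios of 0.27 without and 0.46 with CoCl2. PSMB6, the beta1 subunit with the caspase-like activity, lay between 16.1 and 17.0 on all 4 arrays, with ratios of 0.07 and 0.06. Only PSMB7 among these genes was past the limit under the scaling used here, while PSMB5 with CoCl2 lay close to it. The Sp1-si/NS-si ratios with CoCl2 were higher by 0.063 under the authors' value table and by 0.11 under median scaling. Either takes PSMB5 past the limit.

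Each catalytic subunit has an inducible counterpart in the immunoproteasome, and all 3 counterparts were higher under Sp1-si. PSMB10, which takes the place of PSMB7, stood at 3.44 (NS-si), 10.9 (Sp1-si), 2.30 (NS-si → CoCl2) and 8.86 (Sp1-si → CoCl2). Its log2 Sp1-si/NS-si ratios were 1.67 without and 1.95 with CoCl2, opposite in sign to those of PSMB7. PSMB8, the counterpart of PSMB5, gave 1.55 and 1.53, and PSMB9, the counterpart of PSMB6, gave 1.03 and 1.10. PSME1 and PSME2, which form the interferon-inducible 11S cap, gave 1.04 and 0.80 without and 1.07 and 0.79 with CoCl2. For each of these 5 genes both Sp1-si arrays lay above both NS-si arrays. Their protein levels were not measured.

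In the remaining parts of the core, no gene was past the limit in the Sp1-si/NS-si ratios. In the alpha ring, these ran without CoCl2 from -0.44 for PSMA3 to 0.18 for PSMA5, and with CoCl2 from -0.47 for PSMA7 to 0.20 for PSMA5. PSMA3 stood at 21.7 and 21.6 on the NS-si arrays and at 16.0 on both Sp1-si arrays. PSMA7 stood at 19.2 (NS-si), 18.8 (Sp1-si), 21.4 (NS-si → CoCl2) and 15.4 (Sp1-si → CoCl2), the last being the lowest. In the structural beta subunits the ratios ran from -0.27 for PSMB3 to -0.05 for PSMB4 without CoCl2 and from -0.32 for PSMB1 to 0.31 for PSMB3 with CoCl2. The second PSMB1 probe gave -0.05 with CoCl2 where the brighter gave -0.32.

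In the cap, the ATPases other than PSMC4 lay between -0.36 for PSMC2 and 0.03 for PSMC3 without CoCl2. With CoCl2 PSMC2 was again the lowest of the ATPases at -0.41 and PSMC4 the highest. Of PSMD1, PSMD2 and PSMD4, the base subunits that are not ATPases, PSMD2 was the lowest, at -0.10 without and -0.28 with CoCl2. The highest were PSMD4 at 0.15 without and PSMD1 at -0.08 with CoCl2. In the lid, 7 of 8 genes were below 0 without CoCl2, the exception being PSMD6 with 0.34, and 6 of 8 with CoCl2, where PSMD6 gave 0.40 and PSMD13 gave 0.17. Of all 14283 genes, 7268 were below 0 without and 7314 with CoCl2. PSMD14, the lid enzyme that cuts ubiquitin from substrates, stood at 16.5 (NS-si), 12.4 (Sp1-si), 21.0 (NS-si → CoCl2) and 17.0 (Sp1-si → CoCl2), which is a ratio of -0.42 without and -0.31 with CoCl2.

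The promoters of 4 genes are shown from 250 bases before to 50 after the annotated start site, as given by RefSeq on GRCh38.p14, with each GC box (GGGCGG on either strand, the core of an Sp1 site) in capitals. PSMD9 (chr12:121888540-121888839, plus strand) is the gene with the highest Sp1-si/NS-si ratio, and PSMD11 (chr17:32444260-32444559, plus strand) is one with a low ratio. PSMB5 (chr14:23035171-23035470, minus strand) is a catalytic gene that stayed within the limit under the scaling used here, though close to it with CoCl2. PSMC6 (chr14:52706950-52707249, plus strand) is the gene with the highest ratio of CoCl2. PSMD11 and PSMC6 were picked after their values were seen. PSMB6 and PSMB7 are not in the promoter table.
PSMD9: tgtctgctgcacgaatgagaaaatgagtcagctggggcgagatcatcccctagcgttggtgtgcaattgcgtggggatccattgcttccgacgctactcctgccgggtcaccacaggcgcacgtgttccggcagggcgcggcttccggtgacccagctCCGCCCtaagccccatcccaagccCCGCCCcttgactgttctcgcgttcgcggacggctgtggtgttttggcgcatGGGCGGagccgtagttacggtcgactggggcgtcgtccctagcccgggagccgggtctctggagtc
PSMD11: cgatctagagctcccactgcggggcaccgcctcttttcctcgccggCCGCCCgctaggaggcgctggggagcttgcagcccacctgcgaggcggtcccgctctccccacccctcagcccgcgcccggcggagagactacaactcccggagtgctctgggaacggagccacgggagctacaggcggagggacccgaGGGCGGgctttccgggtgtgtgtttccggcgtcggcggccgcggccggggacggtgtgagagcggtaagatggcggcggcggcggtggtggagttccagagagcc
PSMB5: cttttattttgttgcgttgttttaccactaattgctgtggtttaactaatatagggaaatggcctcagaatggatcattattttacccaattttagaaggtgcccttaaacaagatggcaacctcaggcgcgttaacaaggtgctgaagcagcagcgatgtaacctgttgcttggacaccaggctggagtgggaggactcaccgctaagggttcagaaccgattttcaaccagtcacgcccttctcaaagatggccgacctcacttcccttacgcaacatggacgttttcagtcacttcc
PSMC6: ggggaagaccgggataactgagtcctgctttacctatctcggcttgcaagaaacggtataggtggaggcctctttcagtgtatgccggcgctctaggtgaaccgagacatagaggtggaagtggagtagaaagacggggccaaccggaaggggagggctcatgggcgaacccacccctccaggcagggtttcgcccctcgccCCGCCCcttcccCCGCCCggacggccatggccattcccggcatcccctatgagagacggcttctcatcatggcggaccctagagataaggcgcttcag
PSMD9 holds 3 GC boxes, PSMD11 2 and PSMC6 2, while PSMB5 holds 0. PSMD9, which was higher under Sp1-si, and PSMD11, which was lower, both hold GC boxes, as did 66.5% of the promoters of genes well above background. Whether GC boxes go with the direction of the difference was not tested.

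Promoters were found for 29 of the 34 genes, and 19 of them (65.5%) held a GC box, as against 66.5% of the 11390 promoters of genes well above background and 45.0% of all 35116 promoters in the table. The median Sp1-si/NS-si ratio without CoCl2 was -0.10 for the 19 genes with a GC box and -0.12 for the 10 without. With CoCl2, both medians were -0.06. CCAAT was held by 51.7% of the proteasome promoters and 36.8% of those of genes well above background. TGACNNNGC, the core of the antioxidant response element, was held by 24.1% and 14.8%, ACGTG by 20.7% and 25.5%, and GCGTG by 27.6% and 48.3%. ACGTG and GCGTG are the cores of hypoxia response elements. Both strands were searched for each motif, and matches of different motifs may overlap.

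With CoCl2, genes of the 19S cap lay slightly higher relative to those of the core. In NS-si cells, 14 of the 17 cap genes were above 0, with a median log2 ratio of 0.20, compared with 6 of 14 core genes and a median of -0.02. In Sp1-si cells, whose arrays are separate, 12 of 17 cap genes and 5 of 14 core genes were above 0, with medians of 0.18 and -0.01. The median of all genes was 0.00 in both kinds of cells, with 7175 of 14283 genes above 0 under NS-si and 7096 under Sp1-si. In NS-si cells, 10 of the 17 cap genes lay above the highest core gene, PSMA7 at 0.15. Under Sp1-si the highest core gene was PSMB3 at 0.52, and 1 cap gene lay above it. The next core gene under Sp1-si was PSMA1 at 0.26, below PSMC6, PSMD12, PSMD13 and PSMD14. The difference between the medians of cap and core does not depend on how the arrays are scaled to each other, since any scaling by 1 constant moves both alike, and it was 0.22 under NS-si and 0.19 under Sp1-si. With all probes of a gene averaged it was 0.18 and 0.15. The medians themselves depend on the scaling. Without scaling between arrays those of cap and core were -0.025 and -0.24 under NS-si, with 7 of 17 and 0 of 14 genes above 0, and 0.40 and 0.22 under Sp1-si, with 17 of 17 and 13 of 14. Under median scaling 15 of 17 cap genes and 12 of 14 core genes were above 0 under Sp1-si. These medians are small beside the limit, and no test of the difference was possible.

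PSMC6, an ATPase of the base, had the highest ratio among the 34 genes in both kinds of cells, under Sp1-si level with PSMB3. It stood at 12.3 under NS-si and 12.5 under Sp1-si and at 18.6 in NS-si → CoCl2 and 17.9 in Sp1-si → CoCl2 cells. Both CoCl2 arrays thus lay above both others, with log2 ratios of 0.59 under NS-si and 0.52 under Sp1-si. Its 4 probes gave 0.56 to 0.62 under NS-si and 0.44 to 0.52 under Sp1-si. The ratios under NS-si of the remaining ATPases ran from 0.02 for PSMC2 to 0.31 for PSMC4, and those under Sp1-si from -0.03 for PSMC2 to 0.23 for PSMC1.

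The base subunits PSMD1 and PSMD2, the platform of the cap, gave 0.34 and 0.36 under NS-si and 0.26 and 0.18 under Sp1-si, while PSMD4, a receptor for ubiquitin, gave 0.22 and -0.10. A second PSMD1 probe, which is dimmer, gave only 0.03 and 0.02. In the lid, the highest ratio under NS-si was that of PSMD3 (0.38), followed by PSMD12 (0.37) and PSMD14 (0.35), and the lowest was that of PSMD6 (-0.09). PSMD3 stood at 19.6 (NS-si), 18.6 (Sp1-si), 25.5 (NS-si → CoCl2) and 22.0 (Sp1-si → CoCl2), and its second probe gave 0.60 under NS-si and 0.46 under Sp1-si. In Sp1-si cells, PSMD13 and PSMD12 were the highest lid genes at 0.47 and PSMD8 the lowest at -0.16. PSMD12, a scaffold subunit of the lid, stood at 4.75 (NS-si), 3.98 (Sp1-si), 6.13 (NS-si → CoCl2) and 5.50 (Sp1-si → CoCl2), with CoCl2 ratios of 0.37 and 0.47. Of the genes not otherwise named here, PSMA2 lay between 15.0 and 15.6 over the 4 arrays, PSMA6 between 54.4 and 63.1, PSMC5 between 2.31 and 2.96 and PSMD7 between 9.45 and 12.2.

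Past the limit with CoCl2 under NS-si were PSMC6 upwards, 1 of 34 genes where 13.1% of all genes were, and PSMD5 downwards, 1 of 34 where 12.3% were. In Sp1-si cells, PSMC6 and PSMB3 were past it upwards, 2 of 34 genes against 12.9% of all genes, and 0 downwards against 13.8%. Of genes as bright, 12.5% and 6.87% were past the limit upwards and downwards under NS-si and 10.3% and 9.63% under Sp1-si. Of the 33 proteasome genes that bright, which leave out PSMD5, 1 and 0 were under NS-si and 2 and 0 under Sp1-si. None of the 34 genes reached 1 in size, where 3.75% of all genes did upwards and 3.12% downwards under NS-si and 3.37% and 3.67% under Sp1-si. All 3 genes past the limit lay close to it. PSMC6 under NS-si was 0.37 without scaling between arrays, and under Sp1-si 0.45 after quantile normalization.

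**Figure D3:**
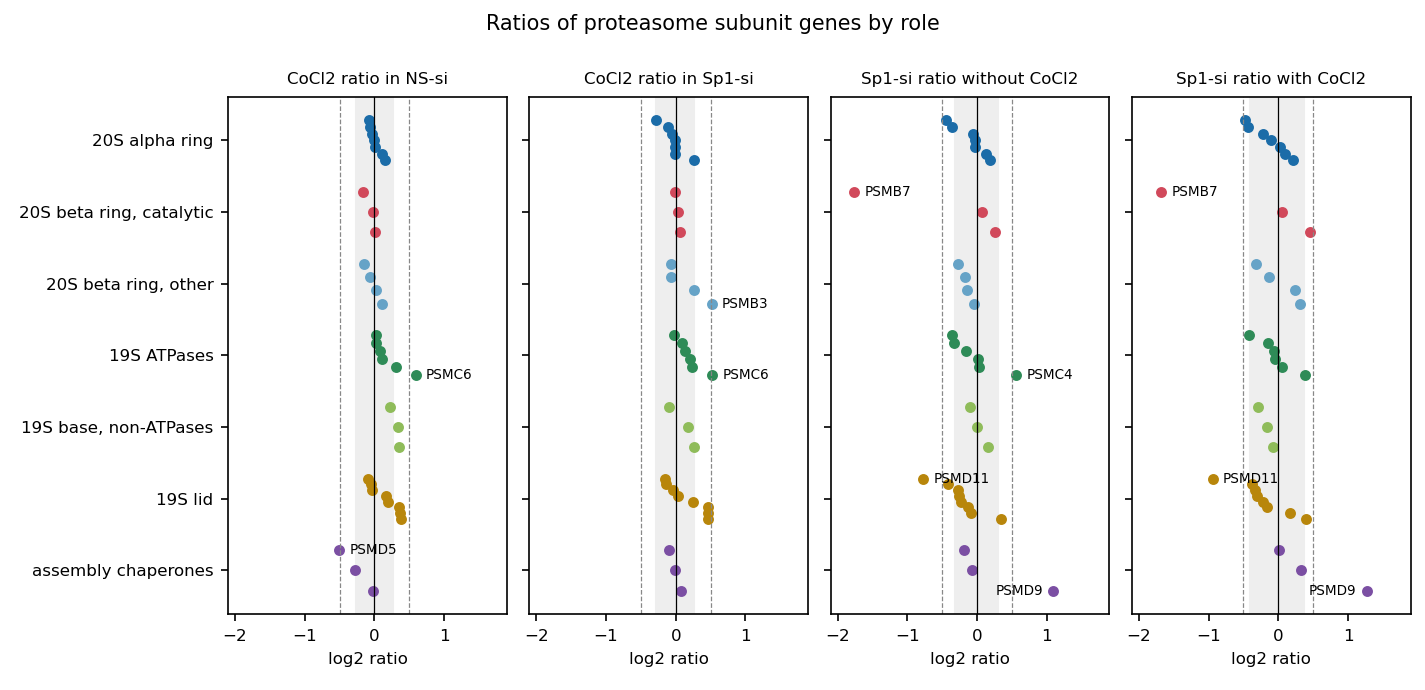
Log2 ratios of the 34 proteasome genes in 4 panels, 1 for each comparison, with a row for each role in the particle. Points are genes, dashed lines mark the limit of 0.5 in size, and the grey band spans the middle 50% of all 14283 genes. Most points lie inside or near the band, and those past the limit are named.

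In the core, the alpha genes had CoCl2 ratios between -0.08 for PSMA4 and 0.15 for PSMA7 under NS-si and between -0.29 for PSMA7 and 0.26 for PSMA1 under Sp1-si. Those of the catalytic genes lay near 0. PSMB5, PSMB6 and PSMB7 gave -0.16, 0.00 and -0.03 under NS-si and 0.03, -0.01 and 0.05 under Sp1-si. Among the structural beta genes the ratios ran from -0.15 for PSMB2 to 0.11 for PSMB1 under NS-si and from -0.07 for PSMB4 to 0.52 for PSMB3 under Sp1-si. The second PSMB1 probe gave -0.10 under NS-si and 0.05 under Sp1-si, where the brighter gave 0.11 and -0.07.

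The CoCl2 ratios of the 34 genes differed between Sp1-si and NS-si cells by a median of 0.01, which is also that of all genes. The difference, Sp1-si minus NS-si, was at least 0.5 for 2 of the 34 genes, PSMB3 and PSMD5, where 8.02% of all genes were, and at most -0.5 for 0, where 10.4% were. PSMB3, a structural beta subunit, stood at 12.7 under NS-si and 12.2 in NS-si → CoCl2 cells and at 10.5 in Sp1-si and 15.0 in Sp1-si → CoCl2 cells. Its ratio was -0.06 under NS-si and 0.52 under Sp1-si, a difference of 0.58 from 1 probe. The SD between spots was 0.036, which leaves out differences between arrays and between cultures. PSMD5 stood at 1.25 (NS-si), 1.10 (Sp1-si), 0.875 (NS-si → CoCl2) and 1.09 (Sp1-si → CoCl2), so that the NS-si → CoCl2 array alone was low. Its ratios of -0.51 and 0.00 differ by 0.51, or by 0.43 with the mean over its probes. Among genes as bright, 3.96% had a difference of at least 0.5 and 7.75% one of at most -0.5. Of the 33 proteasome genes that bright, which leave out PSMD5, 1 and 0 did. A difference of 1 in size was reached by none of the 34 genes, as against 0.973% of all genes upwards and 2.88% downwards. The lowest was that of PSMA7 at -0.44.

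**Figure D4:**
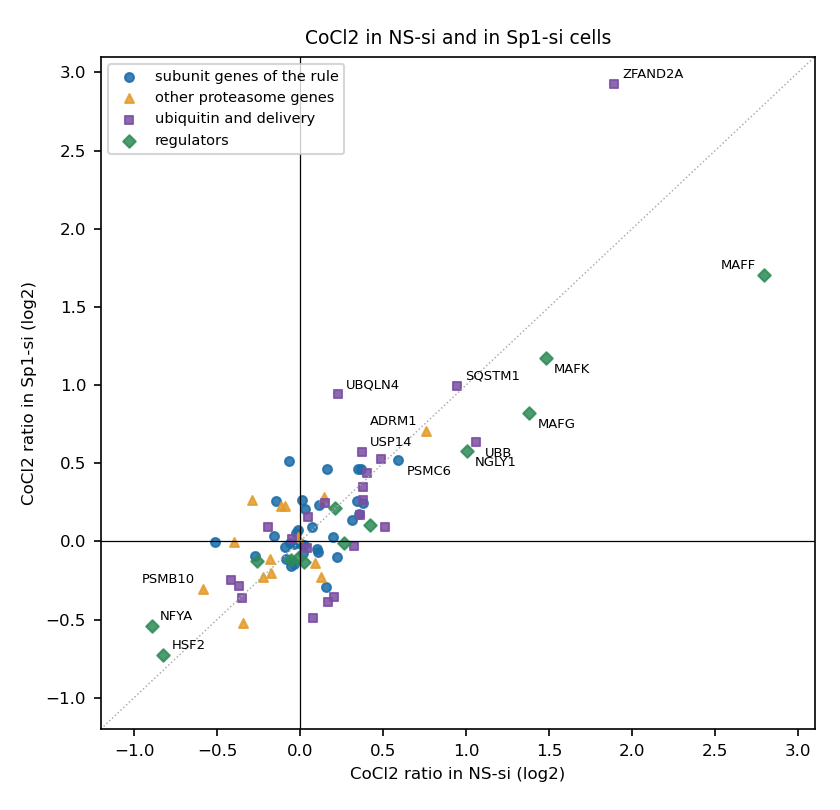
Log2 ratio of CoCl2-treated to untreated cells under NS-si on the x axis and under Sp1-si on the y axis, for the 34 proteasome genes (circles), 14 further proteasome genes (triangles), 23 genes of ubiquitin and its delivery (squares) and 13 regulators (diamonds), with names for genes at 0.55 or more in size on either axis and a dotted line where both ratios are equal. The proteasome genes cluster around 0, while ZFAND2A, MAFF, MAFK, MAFG, SQSTM1, UBB, NGLY1 and ADRM1 lie to the upper right.

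The proteasome genes that the naming rule leaves out were described in the same way. Of 14 with a probe, 1 was past the limit upwards with CoCl2 under NS-si and 1 downwards, beside 13.1% and 12.3% of all genes. The same counts were found under Sp1-si, beside 12.9% and 13.8%. The gene that was higher in both was ADRM1, a ubiquitin receptor of the 19S cap. It stood at 4.54 (NS-si), 4.24 (Sp1-si), 7.67 (NS-si → CoCl2) and 6.91 (Sp1-si → CoCl2), with ratios of 0.76 and 0.70, and its second probe gave 0.74 and 0.65. PSMB10 was lower under NS-si (-0.58) and PSMG1, an assembly chaperone of the alpha ring, under Sp1-si (-0.52). In Sp1-si cells without CoCl2, 5 of the 14 genes were past the limit upwards, where 16.1% of all genes were, which are the immunoproteasome and 11S genes above. Downwards it was 1, where 16.3% were, the chaperone gene PSMG3 at -0.53. With CoCl2 6 were past it upwards, where 19.6% were, the additional one being PSMG2 at 0.67.

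Ubiquitin and the factors that bring it to the proteasome were read out next. Of 23 genes, 4 were past the limit upwards under NS-si and 6 under Sp1-si, where 13.1% and 12.9% of all genes were, and 0 downwards in either, with medians of 0.23 and 0.16 that were 0.0025 and 0.38 without scaling between arrays. ZFAND2A, an arsenite-inducible protein that binds the 19S cap, gave 1.89 under NS-si and 2.92 under Sp1-si, from 0.411 to 1.52 and from 0.314 to 2.39. SQSTM1, the ubiquitin-binding autophagy receptor p62, gave 0.94 and 0.99. UBB, which encodes ubiquitin as a chain of repeats, gave 1.06 and 0.63, and its second probe gave 0.77 and 0.71. UBQLN4, a shuttle factor, gave 0.23 and 0.94, USP14, a deubiquitinase of the cap, 0.37 and 0.57, and ZFAND5 0.49 and 0.52, while the other 4 ZFAND5 probes were past the limit in both. In the Sp1-si/NS-si ratios UBQLN4 was past it downwards without CoCl2 (-0.76), and with CoCl2 ZFAND2A (0.65) and UBE3C (0.50) were past it upwards. The other UBE3C probes gave 0.09 and -0.11.

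Of 13 regulators of proteasome genes, 4 were past the limit upwards and 2 downwards with CoCl2 in each kind of cells, beside 13.1% and 12.3% of all genes under NS-si and 12.9% and 13.8% under Sp1-si. MAFF, MAFK and MAFG, the small partners of NFE2L1 and NFE2L2, gave 2.80, 1.48 and 1.38 under NS-si and 1.70, 1.17 and 0.82 under Sp1-si. NGLY1, which removes glycans from NFE2L1 and so makes it active, gave 1.0 and 0.58. NFE2L1 itself gave 0.42 and 0.10, while its other probes gave 0.46 and 0.35 under NS-si and 0.28 and 0.32 under Sp1-si. NFE2L2 gave 0.03 and -0.13. HSF2 was lower, at -0.82 and -0.73, though its second probe gave -0.16 and -0.25. NFYA was lower, at -0.89 and -0.54, and its other probes gave -0.37 and -0.22 under Sp1-si. The second MAFK probe gave 0.78 and 0.43. In Sp1-si cells without CoCl2, MAFF, NFE2L3 and HSF2 were higher (0.97, 0.75 and 0.56) and MAFK lower (-0.54). With CoCl2, NFE2L3 and HSF2 were past the limit upwards at 0.66 and 0.65, and NGLY1 and MAFK downwards at -0.87 and -0.85. The 7 proteasome genes whose promoters hold TGACNNNGC, which are PSMB3, PSMC4, PSMD1, PSMD3, PSMD5, PSMD9 and PSMD12, had median CoCl2 ratios of 0.31 under NS-si and 0.24 under Sp1-si. The other 22 had medians of 0.01 and 0.03. The 7 genes went both ways, as PSMD5 (-0.51), PSMD9 (-0.27) and PSMB3 (-0.06) were below 0 under NS-si. PSMD5 and PSMD9 were the lowest of all 34 genes, though the second and dimmer PSMD9 probe gave 0.22 under NS-si.

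As a comparison, 2 other complexes of many subunits were read out in the same way. Of the 8 genes of the CCT chaperonin, which folds actin and tubulin, 0 were past the limit with CoCl2 in either kind of cells. The same held for the 9 genes of the COP9 signalosome, a relative of the 19S lid. Of all genes, 13.1% were past it upwards and 12.3% downwards under NS-si, and 12.9% and 13.8% under Sp1-si. In Sp1-si cells without CoCl2 the chaperonin had CCT8 past the limit at 0.54 and CCT5 at -0.74, and the signalosome had COPS8 at -0.68. Among all genes, 16.1% were past it upwards and 16.3% downwards. With CoCl2, CCT8, CCT5 and COPS8 gave 0.84, -0.61 and -0.70, beside 19.6% of all genes upwards and 20.7% downwards. No other gene of the 2 complexes was past the limit in any of the 4 ratios. Most of their genes thus stayed within it, as most proteasome genes did. The second CCT5 probe gave -0.43 without and -0.06 with CoCl2, and 0.52 for the ratio of CoCl2 under Sp1-si.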

How the data were processed

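The deposited intensities are those that Agilent Feature Extraction 10.5.1.1 wrote for each array, per the file headers with background subtraction and detrending and without normalization between arrays, which means that array brightness enters every ratio until the arrays are scaled. Deposited calls (other columns of 0 or 1) mark outlier spots and those well above background. The authors' value table equals the processed signal times 1 constant per array for 43376 of 43376 spots. The annotation of the array uses hg18, not the build of the RefSeq tables, so that coordinates are given only for RefSeq promoters.

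Log2 signals of non-control spots were centred on the 75th percentile of each array, outlier spots were left out, spots of a probe were averaged, and the probe of a gene with the highest mean was used. A probe was well above background where at least 50% of its spots were. Symbols came by RefSeq accession, which matched 28463 of 29877 spots. No spot was saturated. Named are the catalytic genes, the highest and lowest gene of each role in each comparison, genes past 0.5 on the log2 scale and dim members, and a few others (PSMD3, PSMD7, PSMD12, PSMA2, PSMA6, PSMC5, PSMD14 and genes past the limit in the other lists) to account for all members. Some genes of the lists, though counted, are not reported here by name. The members and lists were chosen with earlier results of these data known. With 1 array per condition no p-value was computed. Alternatives were other scalings (median, quantile, none, the authors' table, percentile over probes well above background), normexp, averaged probes, no filter on dim probes, outlier spots kept, and a limit of 1. On simulated data, 200 of 200 planted probes among 41000 were recovered for the CoCl2 ratio under NS-si, with 0 others called. The planted changes were 1 in size on the log2 scale and the added noise was small beside the limit of 0.5. This outcome was thus set in advance. It checks the code only and says nothing of false calls with 1 array per condition. The tools were limma 3.58.1 in R 4.3.3 and, in Python 3.11.15, pandas 2.3.3, numpy 2.4.6, matplotlib 3.10.9 and scipy 1.17.1.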

Additional observations from a re-analysis of the deposited data

Results flagged for a closer look

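PSMB3 was the only proteasome gene whose CoCl2 ratios had opposite signs under NS-si and Sp1-si cells with a difference of at least 0.5 on the log2 scale. The ratios were -0.06 under NS-si and 0.52 under Sp1-si, a difference of 0.58, and under the other settings the difference ran from 0.58 to 1.03. It was not tested, as each condition has 1 array, and PSMB3 has 1 probe.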

How the results depend on the processing

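The Sp1-si/NS-si ratios kept their side of the limit for PSMB7 (-1.82 to -1.72 without and -1.68 to -1.28 with CoCl2), PSMD11 (-0.82 to -0.73 and -0.98 to -0.54) and PSMD9 (1.04 to 1.23 and 1.27 to 1.67) under all settings with the limit of 0.5, as did PSMC4 without CoCl2 (0.51 to 0.60). PSMD11 and PSMC4 were within a limit of 1. No gene past the limit changed sign. Of 145 values compared, 104 moved by less than the technical SD or, for counts, by no more than 1.5 times, and 41 moved further.

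Without scaling, the median of all genes moved by -0.23 for CoCl2 in NS-si, 0.23 for CoCl2 in Sp1-si, -0.06 for Sp1-si without CoCl2, 0.40 for Sp1-si with CoCl2 and 0.45 for the difference of the CoCl2 ratios, and the medians of the proteasome genes became -0.21, 0.26, -0.15, 0.30 and 0.47. The numbers of proteasome genes past the limit upwards then were 0, 5, 2, 9 and 15. Under median scaling, the medians were 0.14 for CoCl2 under Sp1-si, 0.018 for Sp1-si with CoCl2 and 0.11 for the difference, with 5 genes upwards in the first and 4 in the second. Quantile normalization gave medians of -0.044 and 0.00023 for CoCl2 under NS-si and Sp1-si cells and -0.029 for Sp1-si with CoCl2, with 0 genes upwards for CoCl2 under Sp1-si and 2 for Sp1-si with CoCl2. The authors' value table gave medians of -0.057 and -0.019 for CoCl2 under NS-si and Sp1-si cells and -0.053 and -0.031 for Sp1-si without and with CoCl2, with 0 genes upwards for CoCl2 under Sp1-si and 2 for Sp1-si with CoCl2. The 75th percentile over probes well above background gave medians of -0.030 for CoCl2 under NS-si, -0.059 for Sp1-si with CoCl2 and 0.057 for the difference. Normexp with an offset of 50, run on median spot signals the spot signals that the scanner files give, in place of mean signals and so added after the data were seen, gave a median of -0.12 for Sp1-si without CoCl2, 0 genes downwards for CoCl2 under NS-si and 1 gene upwards for the difference. With the mean over probes, 0 genes were past the limit downwards for CoCl2 under NS-si, 1 upwards under Sp1-si and 1 upwards for the difference. With a limit of 1, 0 genes were past it upwards and 0 downwards for CoCl2 under NS-si, 0 upwards for CoCl2 under Sp1-si and 0 upwards for the difference, while 1 was past it upwards and 1 downwards for Sp1-si without CoCl2 and 1 downwards with CoCl2. The cause of these changes is the constant of each array where only the scaling differs, and otherwise the cause was not tested.

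No paired analysis was possible because each condition has 1 array, and the slide could not be used as a block for the same reason.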
